A study of Mus musculus with 16 samples.

Results

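Cytotoxic lymphocytes, which are the natural killer (NK) cells and the killer T cells, were followed in mammary adipose tissue through 10 named genes: Gzma, Gzmb, Gzmk, Prf1, Nkg7, Ifng, Klrb1c, Ncr1, Klrd1 and Eomes. The rule lists the genes by name and sets no threshold on their values, and the table held 23179 genes. All 10 were listed, and all 10 were among the 21218 genes with enough reads to be tested. RNA-Seq had been done on 16 libraries of whole tissue, 4 for each of 4 groups, so a level here is that of the tissue and not of a cell. A lower level can mean fewer cells of a type or less RNA per cell, and these cannot be told apart.

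The mice were female C57BL/6NCrl, labelled wt, and were 8 weeks old when bought. CON-LFD mice ate a low-fat diet with 10% of energy from fat (D12450J) throughout. The other groups ate a high-fat diet with 60% of energy from fat (D12492) for 15 weeks, which made them obese (DIO, diet-induced obesity). DIO-HFD mice then stayed on that diet, DIO-LFD mice were moved to the low-fat diet, and DIO-VSG mice had a vertical sleeve gastrectomy, the removal of part of the stomach, and were moved to the low-fat diet too. All mice without the gastrectomy were given a sham operation. Every mouse, controls included, carried a mammary tumor of the E0771 line, injected into the fourth mammary fat pad in week 22 and grown for 4 weeks, and the tissue sequenced was the fat pad on the other side. The labels also list the E0771 line and mouse mammary cancer as cell type, which names the tumor and not this tissue. The fat-cell hormone gene Adipoq had between 30428 and 123530 normalized counts in every library. Because all 4 groups carried tumors, a group without a tumor was not part of the comparison.

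Killing by these lymphocytes is a delivery of granules. Perforin (Prf1) opens the membrane of the target cell, granzymes (Gzma, Gzmb, Gzmk) are proteases that enter and start cell death, and Nkg7 is a membrane protein of the granules. Receptors decide when the granules are released: Ncr1 (NKp46) activates NK cells, Klrb1c (NK1.1) marks NK cells of this mouse strain, and Klrd1 (CD94) pairs with other lectin-like receptors on NK cells and on some T cells. Eomes is a T-box transcription factor of NK cells and killer T cells, and Ifng encodes interferon gamma, the cytokine both release. The mammary fat pad of the mouse holds a lymph node, an organ dense in T and B cells.

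The promoters are shown because 4 of these genes varied together over the libraries while others did not, as described further on. The RefSeq promoter table of build GRCm38.p6 matched 9 of the 10 genes, Klrd1 being without an entry, in windows of 300 bases, 250 before and 50 after a start site (10 windows, since Ncr1 had 2 start sites). Windows of Prf1, Nkg7 and Eomes, which varied strongly, and of Gzma and Gzmb, which varied little, are printed 5′ to 3′ on the strand of the gene. Capitals mark the letters GGTGTGA, bound by T-box factors, or TGTGGTT, bound by Runx factors, on either strand.
Prf1, chr10:61297586-61297885, plus strand: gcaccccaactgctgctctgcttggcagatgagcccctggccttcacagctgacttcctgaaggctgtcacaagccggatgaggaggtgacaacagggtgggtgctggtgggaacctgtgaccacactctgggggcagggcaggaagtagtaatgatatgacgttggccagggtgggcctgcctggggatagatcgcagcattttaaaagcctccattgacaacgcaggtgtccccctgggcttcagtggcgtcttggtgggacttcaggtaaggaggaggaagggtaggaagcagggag
Nkg7, chr7:43436888-43437187, plus strand: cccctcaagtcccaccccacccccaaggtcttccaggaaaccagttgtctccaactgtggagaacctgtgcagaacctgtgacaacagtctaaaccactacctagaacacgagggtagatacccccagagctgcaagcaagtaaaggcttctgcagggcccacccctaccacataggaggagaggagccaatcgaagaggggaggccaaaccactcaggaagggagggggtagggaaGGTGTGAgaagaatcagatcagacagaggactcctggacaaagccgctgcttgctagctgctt
Eomes, chr9:118477939-118478238, plus strand: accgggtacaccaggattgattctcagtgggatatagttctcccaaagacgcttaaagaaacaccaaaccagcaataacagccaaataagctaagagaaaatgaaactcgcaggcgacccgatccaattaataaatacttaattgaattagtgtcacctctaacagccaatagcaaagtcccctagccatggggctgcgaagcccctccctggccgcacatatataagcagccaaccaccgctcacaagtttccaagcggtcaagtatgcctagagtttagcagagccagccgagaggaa
Gzma, chr13:113100932-113101231, minus strand: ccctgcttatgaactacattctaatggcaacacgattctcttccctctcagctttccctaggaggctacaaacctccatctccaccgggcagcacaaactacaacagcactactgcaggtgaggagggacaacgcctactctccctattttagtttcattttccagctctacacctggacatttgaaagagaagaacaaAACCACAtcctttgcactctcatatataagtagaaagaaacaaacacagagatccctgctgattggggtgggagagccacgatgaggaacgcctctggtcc
Gzmb, chr14:56262285-56262584, minus strand: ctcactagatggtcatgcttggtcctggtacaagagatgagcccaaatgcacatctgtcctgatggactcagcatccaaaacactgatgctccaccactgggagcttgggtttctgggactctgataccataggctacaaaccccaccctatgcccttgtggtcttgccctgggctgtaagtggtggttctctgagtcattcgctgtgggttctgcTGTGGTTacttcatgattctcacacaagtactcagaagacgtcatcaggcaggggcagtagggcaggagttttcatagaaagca
The T-box letters stood in the windows of Nkg7 (1 match, starting 13 bases before the start site) and Gzmk, and in 3.98% of all 32851 windows. The Runx letters stood in the windows of Gzma, Gzmb and Ncr1, and in 5.27% of all windows. Neither was found in the windows of Prf1, Eomes, Ifng or Klrb1c. A match describes these letters and is neither a binding site nor a cause.

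In the genome (GRCm38, GENCODE M21), several of the genes share a chromosome. Gzma (chromosome 13, 113093825 to 113100981) and Gzmk (113171608 to 113225908) lie on the minus strand of chromosome 13, and Klrb1c (128778485 to 128789215, minus strand) and Klrd1 (129591782 to 129598775, plus strand) lie on chromosome 6. Prf1 (61297833 to 61304680) and Ifng (118441046 to 118445892) are on chromosome 10, Ncr1 (4337724 to 4345164) and Nkg7 (43437073 to 43438249) on chromosome 7, all on the plus strand. Gzmb is on chromosome 14 (56258838 to 56262260, minus strand) and Eomes on chromosome 9 (118478212 to 118486132, plus strand). All are protein coding. Gzmk overlaps Esm1 and Eomes overlaps Gm33460 on the opposite strand, while Ifng overlaps Gm49751 and Klrb1c overlaps Gm44511 on the same strand, so reads could be divided between them. Gzmb and the Klr genes have close relatives in the genome, and their values are uncertain for the same reason.

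Each library held 46907377 to 57610899 reads, and levels are given as normalized counts, which are reads divided by the size factor of the library. The 10 genes were scarce. Ifng had 3 reads in each of 2 libraries, which is the floor taken here, and all other genes had at least 6 reads in each library. Per length (RPKM, reads scaled to the exon length of the gene and to the total of the library), Nkg7 was highest of the 10 in 15 of 16 libraries with a median of 8.85, followed by Klrd1 at 4.67. Prf1, Gzma and Eomes had medians of 1.32, 1.31 and 1.25, whose ranges over the libraries overlapped throughout. Gzmb (0.652), Ncr1 (0.641) and Klrb1c (0.623) were lower and close to each other, and Gzmk (0.305) and Ifng (0.107) were lowest. The first 2 places were different in 4 libraries. In DIO-HFD replicate 3, Gzma at 1.33 RPKM was above Nkg7 at 0.984, and in CON-LFD replicates 2 and 4 and DIO-HFD replicate 2 Gzma was second to Nkg7, at 0.748, 1.35 and 1.04 RPKM.

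Levels of lymphoid genes differed between libraries. The T cell score, the mean log2 level of Cd3d, Cd3e and Cd3g (the CD3 chains of the T cell receptor), spanned 5.99, with a gap of 2.03 that set apart 4 libraries: CON-LFD replicates 2 and 4 and DIO-HFD replicates 2 and 3. Cd3e was 69.9 to 208 normalized counts in these 4 and 961 to 4974 in the other 12. Glycam1, made by the vessels through which lymphocytes enter lymph nodes, was 7.42 to 1650.0 in the 4 and 3989.6 to 24584 in the 12, and the lymph node chemokine Ccl21a was 135 to 1093 and 5121 to 37665. CON-LFD and DIO-HFD thus each held 2 libraries low and 2 high in these genes, while all DIO-LFD and DIO-VSG libraries were high. Removal of the lymph node is not described in the methods.

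Perforin and Nkg7 followed this split. In CON-LFD, Prf1 was 107, 14.8, 316 and 26.1 normalized counts in replicates 1 to 4, and in DIO-HFD it was 448, 45.4, 53.5 and 209.8. In DIO-LFD it was 105, 112, 160.1 and 197, and in DIO-VSG it was 434, 282, 259 and 249.7. The lowest values were those of the 4 libraries low in T cell genes, and the DIO-VSG values lay above all of DIO-LFD. Nkg7 was 236, 75.3, 751 and 105 in CON-LFD and 1123, 122, 49.1 and 544 in DIO-HFD. In DIO-LFD it was 282, 302, 377 and 472, and in DIO-VSG it was 841, 699, 655 and 640.4. As for Prf1, DIO-HFD spanned the values of both weight loss groups, and DIO-VSG and DIO-LFD did not overlap.

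The granzymes did not show the same range. Gzma was 72.8, 43.5, 72.9 and 78.4 in CON-LFD, 87.9, 54.2, 73.1 and 45.9 in DIO-HFD, 86.3, 57.5, 87.7 and 65.4 in DIO-LFD, and 41.5, 65.7, 56.4 and 82.0 in DIO-VSG. Gzmb was 54.1, 48.8, 46.1 and 53.3 in CON-LFD, 106, 38.7, 51.3 and 58.2 in DIO-HFD, 76.4, 54.6, 45.7 and 52.1 in DIO-LFD, and 44.6, 62.96, 33.9 and 47.6 in DIO-VSG. All 4 groups overlapped for both, and the libraries low in T cell genes were within the range of the others. The highest library was 2.12-fold above the lowest for Gzma and 3.14-fold for Gzmb, against 30.2-fold for Prf1. Gzmk, carried mainly by memory-type killer T cells, was between: it was 8.48 to 43.4 in CON-LFD, 6.64 to 95.3 in DIO-HFD, 7.64 to 24.5 in DIO-LFD and 10.5 to 35.1 in DIO-VSG.

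The receptors also parted. Klrd1 was 224, 30.7, 704 and 41.2 in CON-LFD and 864, 65.3, 38.2 and 399 in DIO-HFD. It was 222, 200.4, 260.2 and 371 in DIO-LFD and 1006, 691, 588 and 559 in DIO-VSG, so every DIO-VSG library was above every DIO-LFD library. Klrb1c had a smaller range, 31.8 to 155 in CON-LFD, 46.5 to 238 in DIO-HFD, 85.8 to 109 in DIO-LFD and 99.6 to 187 in DIO-VSG. Its 4 lowest libraries (31.8 to 52.3) were again those low in T cell genes. Ncr1, the receptor most limited to NK cells and their close relatives, was 27.6 to 83.02 in CON-LFD, 44.7 to 124 in DIO-HFD, 48.6 to 92.4 in DIO-LFD and 46.7 to 82.7 in DIO-VSG. For Ncr1 the low libraries (27.6 to 49.2) overlapped the others (46.7 to 124).

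The transcription factor Eomes had the widest range, 44.5-fold. It was 153, 24.4, 552 and 20.1 in CON-LFD, 826, 40.9, 18.6 and 393 in DIO-HFD, 131, 221, 267 and 274 in DIO-LFD, and 565, 569, 458 and 425 in DIO-VSG. DIO-VSG and DIO-LFD did not overlap for Eomes either. Ifng was near the floor, at 3.18 to 19.4 in CON-LFD, 3.32 to 38.9 in DIO-HFD, 5.11 to 11.4 in DIO-LFD and 5.13 to 20.01 in DIO-VSG, and its groups overlapped in all 6 pairs. Across the 16 libraries the SD of the log2 level was 0.36 for Gzma, 0.37 for Gzmb, 0.50 for Ncr1, 0.74 for Klrb1c, 0.96 for Ifng, 0.99 for Gzmk, 1.35 for Nkg7, 1.42 for Prf1, 1.67 for Klrd1 and 1.84 for Eomes. The median over all tested genes was 0.39. A lower SD than that of Eomes was found for 96.8% of tested genes, and for 45.4% in the case of Gzma.

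**Figure D1:**
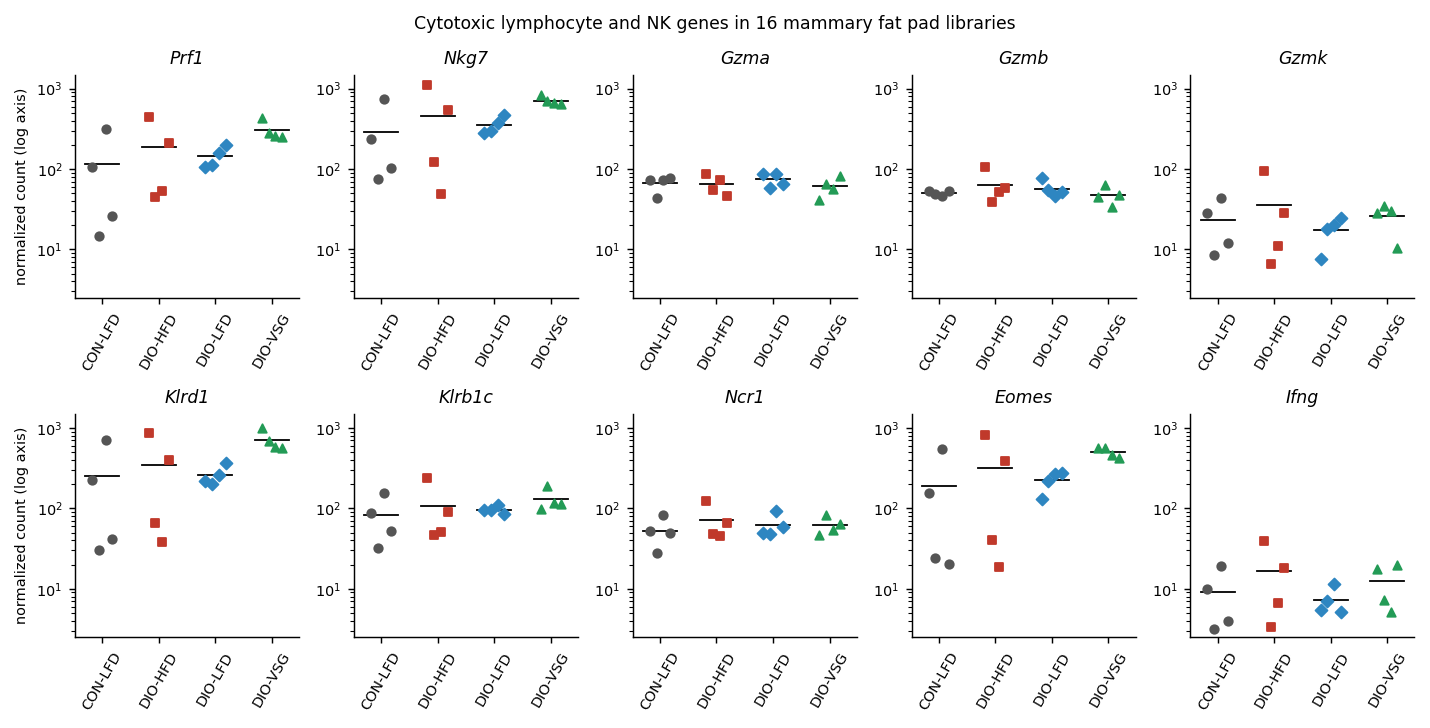
Normalized count (log axis) of each of the 10 genes in 4 groups of 4 libraries. Points are libraries in the order of their replicate numbers and black lines are arithmetic means. Prf1, Nkg7, Klrd1 and Eomes spread widely in CON-LFD and DIO-HFD and stand higher in DIO-VSG than in DIO-LFD, while Gzma and Gzmb keep to a narrow band.

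The relation to T cell content was measured for each gene. Since the score fell into separate clusters, it was taken over the 12 libraries of the upper cluster, 2 to 4 a group, on log2(normalized count + 1). Prf1 (r = 0.988, Spearman's rho = 0.958), Klrd1 (r = 0.985, rho = 0.972), Nkg7 (r = 0.974, rho = 0.951) and Eomes (r = 0.943, rho = 0.909) followed the score closely. Permutation P values (100000 resamples, two-sided, n = 12) for r were 1e-05, the smallest they can give, for Prf1, Nkg7 and Eomes and 2e-05 for Klrd1, and those for rho were 1e-05 for Prf1, Nkg7 and Klrd1 and 1e-04 for Eomes. Of all 21218 genes tested, 4.35% had an r of at least 0.9.

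The other 6 genes followed the score less. Pearson's r (with rho) was 0.611 (0.566) for Ifng, 0.608 (0.671) for Klrb1c, 0.593 (0.643) for Gzmk, 0.420 (0.378) for Ncr1, −0.036 (−0.245) for Gzmb and −0.227 (−0.035) for Gzma. Unadjusted permutation P values for r, of 10 relations computed, were 0.0369 for Ifng, 0.0332 for Klrb1c, 0.0385 for Gzmk, 0.175 for Ncr1, 0.916 for Gzmb and 0.475 for Gzma, and those for rho were 0.0589, 0.0207, 0.0281, 0.227, 0.443 and 0.920. Without the 2 libraries farthest from the median score, r was 0.982 for Prf1, 0.980 for Klrd1, 0.970 for Nkg7, 0.942 for Eomes, 0.584 for Klrb1c, 0.491 for Ifng and 0.391 for Gzmk. It was 0.190 for Ncr1, 0.199 for Gzmb and −0.232 for Gzma, so the relation of Gzmk and of Ifng rested in part on those libraries. Within groups, as deviations from the group means of these libraries, r was 0.986 for Prf1, 0.970 for Klrd1, 0.970 for Nkg7 and 0.880 for Eomes. It was 0.585 for Gzmk, 0.535 for Ifng, 0.505 for Ncr1, 0.479 for Klrb1c, 0.101 for Gzma and −0.031 for Gzmb.

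**Figure D2:**
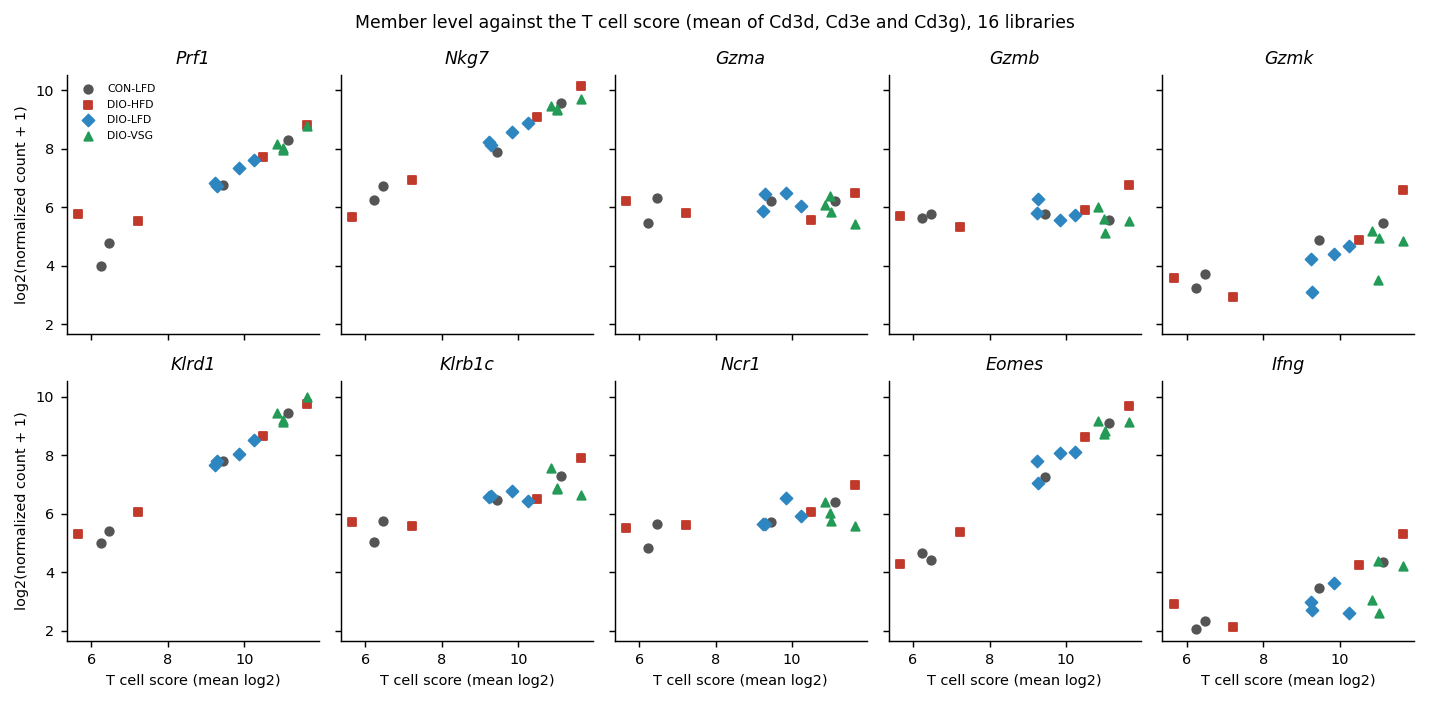
Level of each gene (log2 of normalized count + 1) against the T cell score (mean log2 level of Cd3d, Cd3e and Cd3g) in 16 libraries, with symbols for the 4 groups. The 4 libraries at a score of 7.22 or below are CON-LFD replicates 2 and 4 and DIO-HFD replicates 2 and 3. Prf1, Nkg7, Klrd1 and Eomes climb with the score, and Gzma and Gzmb do not.

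Each gene was also expressed per 100 normalized counts of Cd3e. The highest library was then 2.34-fold above the lowest for Eomes, 3.28-fold for Klrd1, 4.16-fold for Nkg7 and 9.60-fold for Prf1, and 125-fold for Gzma and 81.9-fold for Gzmb. Eomes was 11.4 to 26.6 and Klrd1 16.7 to 54.7 per 100 of Cd3e over all libraries. Gzma, in contrast, ranged from 0.834 in DIO-VSG replicate 1 to 105 in DIO-HFD replicate 3, and Ncr1 from 0.938 to 64.1 in the same libraries. The highest ratio of all 10 genes was in DIO-HFD replicate 3, the library with the lowest Cd3e. In DIO-VSG, Gzma was 0.834 to 2.74 per 100 of Cd3e, against 3.47 to 8.98 in DIO-LFD. Gzma itself overlapped between these groups and Cd3e did not, so the divisor set them apart. The lowest ratios of Gzma in CON-LFD (1.92) and DIO-HFD (1.78) were within the range of DIO-VSG.

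The question of obesity was addressed by DIO-HFD against CON-LFD, and none of the 10 genes passed the test. The test was limma-trend, a linear model on log2(normalized count + 1) that shares information on the spread between genes, with P values adjusted by Benjamini-Hochberg over 21218 genes and a threshold of 0.05. Adjusted P values were 0.660 to 0.959, and at an unadjusted P under 0.05 there were also 0. In this comparison 0.0377% of all genes passed. The largest difference was that of Prf1, for which obese tissue had 189 ± 188 (SD, n = 4) and lean tissue 116 ± 139.7 normalized counts, with a log2 difference of 1.00 ± 0.84 (SE) with a 95% interval of −0.80 to 2.81. The SD of each group was as large as its mean, since each held both low and high libraries. Eomes (0.64), Ifng (0.60), Klrd1 (0.52), Ncr1 (0.39), Nkg7 (0.35), Klrb1c (0.29), Gzmb (0.23) and Gzmk (0.17) had higher means in DIO-HFD on this scale and Gzma (−0.04) a lower one. Their median difference was 0.37, against 0.02 over all genes tested. Single libraries turned this direction: without DIO-HFD replicate 1 the median was −0.20 with 3 of 10 higher, without CON-LFD replicate 2 it was −0.0016 with 5 higher, and without CON-LFD replicate 3 it was 0.84 with 10 higher. Markers of T cells (18 of 18 higher, median 0.63) and of B cells (10 of 10, median 1.16) differed in the same direction, and with the T cell score as a covariate the median over the 10 genes was 0.18.

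**Figure D3:**
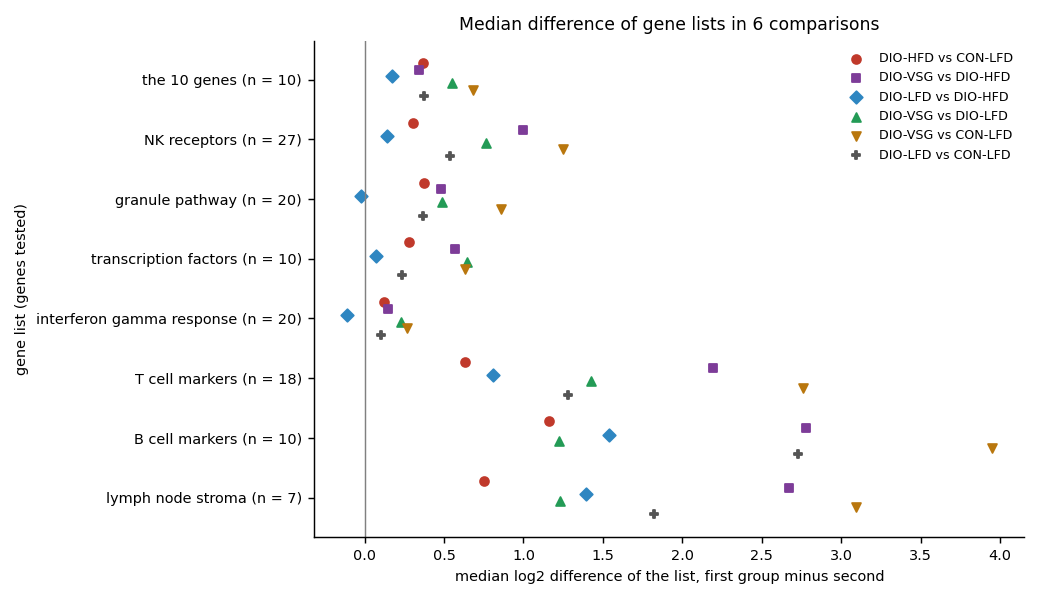
Median log2 difference (first group minus second) of the 10 genes and of 7 gene lists in each of 6 comparisons. The number of genes tested stands beside each list. T cell, B cell and lymph node stroma markers stand farthest from 0, and in DIO-VSG against CON-LFD their medians are 2.76, 3.95 and 3.09, against 0.68 for the 10 genes.

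Surgery was compared with continued obesity in DIO-VSG against DIO-HFD. None of the 10 genes passed (adjusted P 0.389 to 0.957 with limma-trend, 0 at an unadjusted P under 0.05), and 0% of all genes did. Without DIO-HFD replicate 1, 5 were higher in DIO-VSG at an unadjusted P under 0.05 and 0 passed. In that fit 3008 of all 21105 genes tested were also higher at that level, and 2812 were lower. Klrd1 was 711 ± 205 in DIO-VSG and 342 ± 385 in DIO-HFD, a log2 difference of 2.00 ± 0.99 (95% interval −0.12 to 4.12). Eomes (1.97), Nkg7 (1.51) and Prf1 (1.27) had differences of the same sign, and Gzmb was 47.3 ± 12.01 in DIO-VSG and 63.7 ± 29.6 in DIO-HFD (log2 difference −0.35). Without the 4 libraries low in lymph node stroma genes, which left 2 DIO-HFD libraries, the 4 differences were 0.24 for Klrd1, −0.19 for Eomes, −0.15 for Nkg7 and −0.04 for Prf1. T cell markers differed in the same direction: all 18 had higher means in DIO-VSG, with a median of 2.19, and their summed level was 43200.5 to 69159 in DIO-VSG and 2074 to 74442 in DIO-HFD. None of those 18 passed the test. With the T cell score as a covariate, the differences were 0.080 for Klrd1, −0.090 for Nkg7, −0.21 for Eomes and −0.30 for Prf1.

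Diet alone was compared with continued obesity in DIO-LFD against DIO-HFD. Here too none of the 10 genes passed, and 0% of all genes did, with adjusted P values of 0.897 to 0.985 (limma-trend) and 0 genes at an unadjusted P under 0.05. Eomes was 223 ± 65.7 in DIO-LFD and 319.8 ± 379 in DIO-HFD, and its log2 difference was 0.75 ± 1.13. The arithmetic means stood in the opposite order, and 2 DIO-HFD libraries were very low. Ifng was 7.24 ± 2.91 in DIO-LFD and 16.7 ± 16.1 in DIO-HFD, a log2 difference of −0.67 ± 0.68. Without the 4 libraries low in lymph node stroma genes, which left 2 DIO-HFD libraries, 9 of the 10 differences were below 0. Eomes was at −1.41, Klrd1 at −1.20, Nkg7 at −1.15 and Prf1 at −1.14, and adjusted P values for these were 0.157 to 0.181 (limma-trend). In that fit 6 of the 10 were lower in DIO-LFD at an unadjusted P under 0.05. Of all 21218 genes, 2579 were lower and 2331 higher at that level. The median over the 10 genes was 0.17 with all libraries, and −0.18 and −0.19 without DIO-HFD replicates 2 and 3 in turn.

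Both weight loss groups were compared with each other in DIO-VSG against DIO-LFD, where neither group held a library low in T cell genes. Prf1 was 306 ± 86.1 in DIO-VSG and 144 ± 43.4 in DIO-LFD, a log2 difference of 1.10. Nkg7 was 709 ± 91.7 and 358 ± 86.4 (log2 difference 1.00), Klrd1 was 711 ± 205 and 263 ± 75.9 (1.43), and Eomes was 504 ± 73.9 and 223 ± 65.7 (1.22). Each of these 4 genes was higher in all 4 DIO-VSG libraries than in any DIO-LFD library, with an exact two-sided permutation P of 0.0286, the smallest that 4 against 4 allows. Groups that did not overlap, with DIO-VSG higher, were found for 12.9% of all genes tested. In the fit of all 16 libraries none of the 10 genes passed (limma-trend, adjusted P 0.563 to 0.998, 0 at an unadjusted P under 0.05), and neither did any other gene (0%).

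This comparison depended on which libraries were fitted. When only the 8 libraries of these groups were fitted, the same differences passed for Klrd1 (adjusted P = 0.0180), Nkg7 (0.0190), Eomes (0.0251) and Prf1 (0.0416) with limma-trend, as did 7.22% of all genes. SEs were then 0.24 for Klrd1 and 0.18 for Nkg7, against 0.99 and 0.83 in the fit of all libraries. The common spread of that fit took in the low libraries of CON-LFD and DIO-HFD. In a fit without the 4 libraries low in lymph node stroma genes, 0 of the listed genes passed, as did only 4 of all 21218 genes. At an unadjusted P under 0.05 (limma-trend), 4 of the listed genes and 2774 of all genes were higher in DIO-VSG. Why the fits differed was not tested. The remaining 6 genes did not pass in any of these fits. Klrb1c was 129 ± 39.4 in DIO-VSG and 96.2 ± 9.42 in DIO-LFD with an exact permutation P of 0.0571. Gzma was 61.4 ± 16.9 and 74.2 ± 15.1, Gzmb 47.3 ± 12.01 and 57.2 ± 13.3, and Ncr1 61.7 ± 15.7 and 62.4 ± 20.6, with log2 differences of −0.29, −0.28 and 0.00.

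All T cell and B cell markers tested also had higher means in DIO-VSG than in DIO-LFD, as did 6 of 7 lymph node stroma markers. The exception, Madcam1, was 109 ± 16.1 in DIO-VSG and 132 ± 94.4 in DIO-LFD (log2 difference −0.014). Cd3e was 3483 ± 998 in DIO-VSG and 1294 ± 432 in DIO-LFD, Cd8a (the coreceptor of killer T cells) 4126 ± 892 and 1769.6 ± 713, and Glycam1 20592 ± 3949 and 8858 ± 4306. All 18 T cell markers and all 10 B cell markers had groups that did not overlap, as did 4 of 7 lymph node stroma markers. DIO-VSG was higher in each, against 12.9% of all genes. In the fit of those 8 libraries 18 of 18 T cell, 8 of 10 B cell and 3 of 7 stroma markers passed. All of these were higher in DIO-VSG, and 7.22% of all genes passed in either direction. None of these lists had a gene at 0 in any library, except the stroma list, where 1 gene was. With the T cell score as a covariate in the fit of 16 libraries, the differences between DIO-VSG and DIO-LFD were 0.24 for Klrd1 (95% interval −0.11 to 0.59), 0.12 for Prf1 (−0.50 to 0.74), 0.01 for Nkg7 (−0.34 to 0.36) and −0.14 for Eomes (−0.59 to 0.32). With the score of lymph node stroma genes as the covariate, 7 of the 10 differences stayed above 0, the highest at 0.67 (Klrd1), and none passed.

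**Figure D4:**
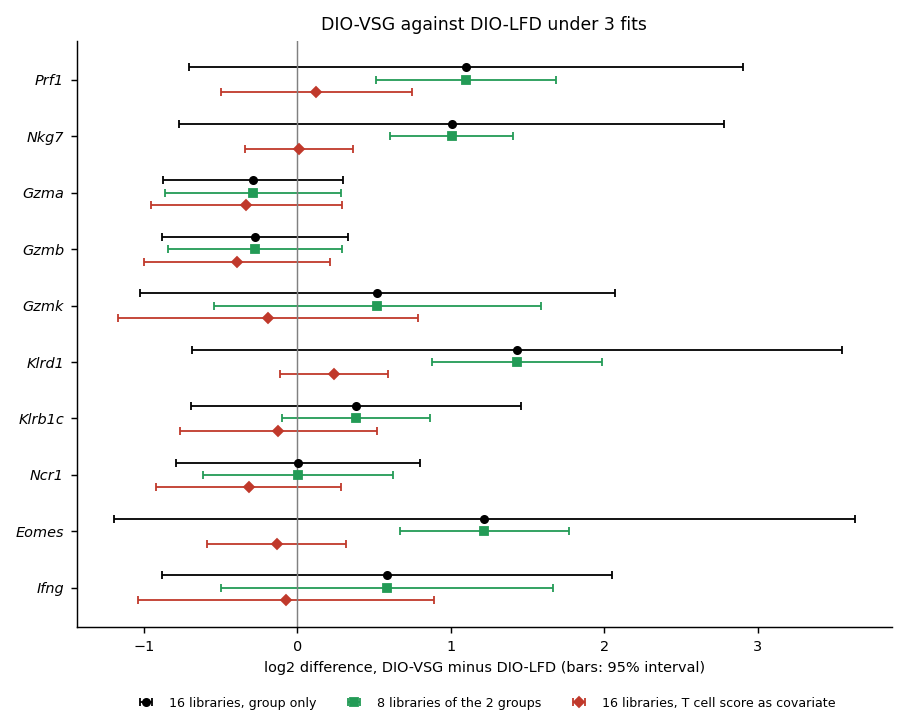
Log2 difference of each gene between DIO-VSG and DIO-LFD (n = 4 libraries each), with 95% intervals, in the fit of 16 libraries, in a fit of the 8 libraries alone, and in the fit of 16 with the T cell score as covariate. Prf1, Nkg7, Klrd1 and Eomes lie between 1.00 and 1.43 in the first and second fit and between −0.14 and 0.24 in the third.

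DIO-VSG and DIO-LFD were also set against the lean control, which shares its libraries with the comparison of obesity. In DIO-VSG against CON-LFD none of the 10 genes passed (limma-trend, adjusted P 0.268 to 0.834, and 0% of all genes). At an unadjusted P under 0.05, 4 were higher in DIO-VSG: Prf1 (log2 difference 2.27 ± 0.84), Klrd1 (2.52 ± 0.99), Eomes (2.61 ± 1.13) and Nkg7 (1.86 ± 0.83). The share of all genes higher at that level was 10.2%. The count of 4 was 0 without CON-LFD replicate 2 or replicate 4, 1 without DIO-VSG replicate 1, 2 without any other DIO-VSG library, 3 without CON-LFD replicate 1 and 5 without CON-LFD replicate 3. The number of all genes higher at that level, 2169 with all libraries, also moved. It was 926 and 888 without CON-LFD replicates 2 and 4, and 1040 without DIO-VSG replicate 1. Without any other DIO-VSG library it was 1403 to 1738. It was 1609 without CON-LFD replicate 1 and 3776 without CON-LFD replicate 3. The 95% intervals were wide, 0.46 to 4.08 for Prf1 and 0.19 to 5.02 for Eomes, and groups overlapped for all 10 genes. These 4 genes passed when libraries far from their group means were given less weight (limma array weights, adjusted P 0.0301 to 0.0444), as did 19.9% of all genes. Without CON-LFD replicate 3, the control richest in T cell genes, Prf1 passed (log2 difference 3.06, adjusted P = 0.0482 with limma-trend), as did 4.15% of all genes. Without the 4 libraries low in lymph node stroma genes none passed, and the differences of all 10 lay between −0.56 and 0.80.

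In DIO-LFD against CON-LFD none of the 10 passed (limma-trend, adjusted P 0.873 to 0.992, and 0 at an unadjusted P under 0.05), against 0.00471% of all genes. Eomes was 223 ± 65.7 in DIO-LFD and 187 ± 251 in CON-LFD, a log2 difference of 1.39 ± 1.13, and Gzma was 74.2 ± 15.1 and 66.9 ± 15.8 (0.16 ± 0.27). The intervals of the narrow genes bound their differences most closely. For Gzma the 95% interval lay within −0.88 and 0.79 in all 6 comparisons, and for Gzmb within −0.96 and 0.84.

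Further NK cell receptors behaved as a mixed group. Of 28 listed, 27 were tested (Cd244a was not listed under this name), and 0 passed in any comparison. In DIO-VSG against DIO-LFD, 24 of 27 had higher means, 15 had groups that did not overlap with DIO-VSG higher (12.9% of all genes), and the median difference was 0.76 (−0.02 over all genes). Klrc1, which encodes NKG2A, the partner of CD94, was 177 ± 45.8 in DIO-VSG and 86.4 ± 12.1 in DIO-LFD (log2 difference 1.01, adjusted P = 0.534 with limma-trend). Cd226, an activating receptor of NK and T cells, was 564 ± 124 and 265 ± 102 (1.14, adjusted P = 0.537). In the fit of those 8 libraries 8 of 27 passed, all higher in DIO-VSG, against 7.22% of all genes in either direction. Relative to CON-LFD, DIO-HFD had 47.1 ± 21.7 normalized counts of Klra4, an NK receptor of the Ly49 family, against 19.7 ± 14.5 (1.34, adjusted P = 0.314), and Il18rap, a chain of the interleukin 18 receptor, was 569.8 ± 347 and 285 ± 277 (1.21, adjusted P = 0.387). Itga1, an integrin that many cell types of this tissue make, was 3319.6 ± 454 in DIO-VSG and 6488 ± 2913 in DIO-HFD (−0.86, adjusted P = 0.319), with groups that did not overlap.

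The machinery of granules was tested with 20 of 24 listed genes. Gzmd, Gzme, Gzmf and Gzmg were not listed. Again 0 passed in any comparison, and 5 of 20 passed, all higher, in the 8 libraries of DIO-VSG and DIO-LFD (7.22% of all genes). Stxbp2, which helps granules fuse with the membrane, was 3635 ± 218 in DIO-VSG, 2895 ± 292 in DIO-LFD and 2869 ± 793 in DIO-HFD, with log2 differences of 0.33 and 0.38 (adjusted P = 0.510 and 0.334 with limma-trend). Serpinb9, an inhibitor of granzyme B, was 2386 ± 757 in DIO-HFD and 1746 ± 560.1 in CON-LFD (0.45, adjusted P = 0.382). Gzmc, a granzyme gene of the same cluster as Gzmb, was 33.4 ± 14.8 in DIO-VSG and 12.9 ± 12.2 in DIO-HFD (1.70, adjusted P = 0.382). Ccl4, a chemokine released by activated killer cells among others, was 36.1 ± 15.4 in DIO-HFD and 18.8 ± 10.7 in CON-LFD (0.97, adjusted P = 0.403).

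Transcription factors of cytotoxic and innate lymphocytes (10 of 10 tested) also had 0 calls, and 6 of 10 passed, all higher, in the 8 libraries of DIO-VSG and DIO-LFD (7.22% of all genes). Tbx21 (T-bet), the T-box relative of Eomes that drives Ifng in NK and T cells, was 236 ± 31.8 in DIO-VSG and 153 ± 19.8 in DIO-LFD (log2 difference 0.63, exact permutation P = 0.0286). It varied 5.79-fold over the libraries, against 44.5-fold for Eomes. Nfil3, needed for NK cell development and also made by many other cells, differed the other way, with 367 ± 125 in DIO-VSG and 629 ± 317 in DIO-LFD (−0.71, adjusted P = 0.510). Prdm1, a factor of terminally differentiated lymphocytes, was 459 ± 193 in DIO-HFD and 293 ± 138 in CON-LFD (0.67, adjusted P = 0.359).

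Genes of the interferon gamma receptor and of the response to it (20 of 20 tested) had 0 calls and smaller medians, from −0.11 in DIO-LFD against DIO-HFD to 0.27 in DIO-VSG against CON-LFD. Cxcl9, a chemokine induced by interferon gamma, was 1826 ± 505 in DIO-VSG, 1544 ± 153 in DIO-LFD, 2049 ± 453 in DIO-HFD and 2186 ± 314 in CON-LFD, and it varied 2.47-fold over the libraries. Nos2, the inducible nitric oxide synthase, was 641 ± 352 in DIO-HFD, 297 ± 67.2 in CON-LFD and 242 ± 30.7 in DIO-VSG (−1.26 for DIO-VSG against DIO-HFD, adjusted P = 0.246), and Nos2 was the only 1 of 20 that passed as lower in DIO-VSG in the 8 libraries of DIO-VSG and DIO-LFD, where 3 passed as higher (7.22% of all genes passed). Gbp2, an interferon-induced GTPase, was 4377 ± 360.0 in DIO-HFD, above all libraries of DIO-VSG (3467 ± 483) and of DIO-LFD (3558 ± 175), with adjusted P values of 0.257 and 0.463. The lean control was close to DIO-HFD, with 4354 ± 257 in CON-LFD, and also stood above all DIO-LFD libraries (adjusted P = 0.601 with limma-trend). Ido1, which breaks down tryptophan, was 5903 ± 3677 in DIO-LFD and 996 ± 623 in DIO-HFD (2.51, adjusted P = 0.463).

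Markers of other cell types were measured beside these genes. Mast cells also make proteases of granules, and their markers had summed levels of 6683 to 10531 in DIO-VSG and 9991 to 14622 in DIO-LFD, with a median difference of −0.14 over 8 genes. Macrophage markers had a median of −0.88 in DIO-VSG against DIO-HFD, with 1 of 8 higher, and Trem2, a receptor of lipid-laden macrophages, was 95.4 ± 79.3 and 280.1 ± 188 (−1.67, adjusted P = 0.297 with limma-trend). Adipocyte and mammary epithelium markers had medians of −0.42 and −0.42 in DIO-VSG against DIO-LFD. None of the genes of these 4 lists passed in any comparison of the 16 libraries. In the fit of the 8 libraries of DIO-VSG and DIO-LFD, 1 mast cell marker passed as lower in DIO-VSG, against 7.22% of all genes in either direction, and 0 genes of the other 3 lists passed. It was Kit, a growth factor receptor of mast cells and of other cells, named after its values were seen. Kit was 4002 ± 114 in DIO-VSG and 6631 ± 1139 in DIO-LFD (log2 difference −0.71, adjusted P = 0.509 with limma-trend in the 16 libraries). It had the highest mean of the 8 mast cell markers in both groups and so weighs most in their summed levels. The other mast cell markers differed by −0.26 (Tpsb2) to 0.17 (Ms4a2), with groups that overlapped.

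The 10 genes were compared with each other over the 12 libraries of the upper cluster, as a description. Prf1 and Nkg7 were most alike (r = 0.984), Klrd1 was most like Prf1 (0.981) and Eomes most like Nkg7 (0.975). Klrb1c and Ncr1 were each other's nearest (0.798), Gzmk (0.692) and Ifng (0.612) were nearest to Eomes, and Gzma and Gzmb had no gene above 0.503 and 0.462. Gzma was least like 7 of the other 9. Outside the set, over all 16 libraries and 18478 genes with a mean of at least 20 normalized counts, the 10 with the profile most like the mean of the set were Mir142b (r = 0.973), Cecr6 (0.956), Igkv4-53 (0.955), Foxp3 (0.953), Igkv2-112 (0.949), Cxcr3 (0.944), Klra7 (0.941), Rnf157 (0.941), Igkv4-86 (0.940) and Aldh1b1 (0.940). Foxp3 is the factor of regulatory T cells, Cxcr3 the receptor of the chemokine Cxcl9, Klra7 an NK receptor of the Ly49 family, and the Igkv genes are immunoglobulin segments of B cells. These libraries share the low cluster, and over the 12 others the r of the 10 lay between 0.839 (Igkv4-86) and 0.948 (Igkv2-112).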

How the data were processed

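Total RNA of whole mammary adipose tissue was sequenced by the authors from stranded libraries. Their methods name STAR, salmon and Gencode on GRCm38 with normalization by DESeq2, while the submitters' processing notes name TopHat2 2.0.7, HTSeq 0.5.3p9 and DESeq2 on mm10. The annotation release and the strand setting were not given in the sources used here. The deposited values are on a log2 scale and are the variance-stabilized values of the authors, with a lowest value of 5.36. They were inverted to normalized counts, and whole reads came back for 100.0% of values (tolerance 0.001 reads), with totals of 46907377 to 57610899 and size factors of 0.9036 to 1.2204. The values were not counts as deposited, so the main test was set on a log scale and not on counts. Counts could be recovered, and voom on the recovered reads was an alternative.

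Groups and replicate numbers came from the sample titles and columns were matched by animal number, with 0 columns left without a sample. A gene entered the test if 4 or more libraries reached 10 normalized counts, which left 21218. The test was limma-trend on log2(normalized count + 1), a scale that understates the change of low genes, and 1 fit held all 16 libraries and no term other than group (R 4.3.3 and limma 3.58.1). Tests were two-sided, and P values were adjusted by Benjamini-Hochberg within each comparison (threshold 0.05). The script was tested on simulated data. Single values were compared by exact permutation, and correlations by permutation (Python 3.11.15, scipy 1.17.1), without adjustment over the 10 genes. Each library was labelled as a separate animal. Replicates of a group differed far beyond sampling noise (lowest chi-square for a gene on average, 72.7), so none was counted as a repeat.

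The genes and all lists were chosen with earlier results of these data known. Named beside the 10 genes are, for each list, the 2 with the lowest unadjusted P in the 4 comparisons among DIO-HFD, CON-LFD and the weight loss groups (some of them are shown here), those passing in any comparison (0), fixed markers, and the 10 genes most like the set. Alternatives were other scales, pseudocounts, filters, normalizations, weights, covariates and sample sets. A planned covariate built on B cell markers, and some listed genes, are not reported here. Exon lengths came from GENCODE M21 and promoters from RefSeq.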

Additional observations from a re-analysis of the deposited data

Results flagged for a closer look

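Of 40 sets of 4 libraries examined (10 genes in 4 groups), 1 held a library far from the others. Gzma in CON-LFD replicate 2 was 43.5 normalized counts, and the other 3 controls were 72.8 to 78.4. The gap was 0.841 of the range of the group, above Dixon's limit for 4 samples. Chance gives such a gap in about 1 in 20 groups. CON-LFD replicate 2 is also 1 of the 4 libraries low in T cell genes, where Prf1 was 14.8, while Gzma in the other low control, CON-LFD replicate 4, was 78.4.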

How the results depend on the processing

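None of the 10 genes passed in any of the 6 comparisons in the fit of 16 libraries, and this stayed so with the deposited log2 values, pseudocounts of 5 and 0.5, no filter, quantile normalization, voom on the recovered reads, both covariates, and without the 4 libraries low in lymph node stroma genes. The number that passed was 4 in DIO-VSG against DIO-LFD when only the 8 libraries compared were fitted (Prf1, Nkg7, Klrd1 and Eomes), and 4 in DIO-VSG against CON-LFD with array weights (the same 4). Leaving out 1 library gave 0 to 1 in DIO-VSG against CON-LFD (Prf1, without CON-LFD replicate 3, 3.06) and 0 to 0 in each other comparison. The cause of these changes was not tested, except that the fit of 8 libraries takes its spread from fewer samples. Of 60 differences (10 genes, 6 comparisons), the sign changed in 23 with the T cell score as covariate, 24 with the lymph node stroma score, 19 without the low libraries, 8 with array weights, 3 with quantile normalization, and 2 each with the deposited values and voom. With voom the median of all genes shifted by 0.145 in DIO-HFD against CON-LFD and 0.11 in DIO-VSG against CON-LFD. It changed in 0 with either pseudocount, no filter, the 8 libraries or the replicate block. Of all genes, 8 passed in DIO-HFD against CON-LFD, and 47 did with the T cell score and 18 with the lymph node stroma score as covariate, 12 with voom, 4196 with array weights, 3 with quantile normalization, 1 without the low libraries or with the replicate block, 0 when only the 8 libraries compared were fitted, and 0 to 136 when 1 library was left out (136 without CON-LFD replicate 3). With the replicate block, 0 of the 10 genes passed and the lowest adjusted P was 0.309 (limma-trend). Replicate numbers are not said to mark a shared litter or day. The correlation of deviations was −0.61 to 0.53 (median 0.02) over 24 pairs of the same number. Over 72 pairs of different numbers it was −0.63 to 0.74 (median −0.0034). With ranges this wide, the check cannot tell whether samples of the same number share more than that number. The count of genes with r of at least 0.9 against the T cell score, 4, was 4 with the deposited values and 3 as deviations from group means. The lymph node stroma covariate and the removal of low libraries were chosen after the data had been seen. With the T cell score as a covariate, these differences had the other sign: Prf1 −0.30, Nkg7 −0.090, Eomes −0.21 in DIO-VSG against DIO-HFD, Prf1 −0.43, Nkg7 −0.10, Klrd1 −0.16, Eomes −0.073 in DIO-LFD against DIO-HFD, Eomes −0.14 in DIO-VSG against DIO-LFD, Nkg7 −0.034 in DIO-VSG against CON-LFD, and Nkg7 −0.044 in DIO-LFD against CON-LFD. With the lymph node stroma score (Ccl21a, Ccl19 and Glycam1) as a covariate, these differences had the other sign: Nkg7 −0.16, Klrd1 −0.097, Eomes −0.067 in DIO-HFD against CON-LFD, Prf1 −0.080 in DIO-VSG against DIO-HFD, Prf1 −0.56, Nkg7 −0.24, Klrd1 −0.33, Eomes −0.28 in DIO-LFD against DIO-HFD, Nkg7 −0.037 in DIO-VSG against CON-LFD, and Prf1 −0.056, Nkg7 −0.41, Klrd1 −0.43, Eomes −0.34 in DIO-LFD against CON-LFD. Without the 4 libraries low in lymph node stroma genes, these differences had the other sign: Prf1 −0.040, Nkg7 −0.15, Eomes −0.19 in DIO-VSG against DIO-HFD, Prf1 −1.14, Nkg7 −1.15, Klrd1 −1.20, Eomes −1.41 in DIO-LFD against DIO-HFD, and Prf1 −0.41, Nkg7 −0.26, Klrd1 −0.63, Eomes −0.44 in DIO-LFD against CON-LFD. With array weights, these differences had the other sign: Prf1 −0.39, Nkg7 −0.44, Klrd1 −0.45, Eomes −0.55 in DIO-LFD against DIO-HFD, and Gzma 0.32 in DIO-VSG against DIO-HFD. Leaving out 1 library at a time changed the sign of some differences, whose ranges over the 16 fits were −0.38 to 1.12 for Nkg7, −0.25 to 1.37 for Klrd1, −0.26 to 1.55 for Eomes in DIO-HFD against CON-LFD, and −0.31 to 0.79 for Prf1, −0.26 to 1.23 for Nkg7, −0.15 to 1.34 for Klrd1, −0.15 to 1.65 for Eomes in DIO-LFD against DIO-HFD, and −0.24 to 0.086 for Gzma in DIO-VSG against DIO-HFD. Genes with few reads, Ifng above all, are limited by counting.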

Other observations

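The ratio of Gzma to Prf1 set the libraries close to the reverse of their order by Prf1. Over the libraries Gzma varied 2.12-fold and Prf1 30.2-fold, so the divisor largely set this order. Per length, Gzma was 7.52 times Prf1 in CON-LFD replicate 2 and 7.71 times in CON-LFD replicate 4, and 3.07 and 3.51 times in DIO-HFD replicates 2 and 3, the 4 libraries low in T cell genes. In DIO-VSG it was 0.246, 0.597, 0.561 and 0.843, below 1 in all 4, and in DIO-LFD it was 2.11, 1.32, 1.41 and 0.852. In the remaining 4 libraries it was 1.75 and 0.592 in CON-LFD replicates 1 and 3 and 0.504 and 0.562 in DIO-HFD replicates 1 and 4, so a ratio below 1 was found in 3 groups beside DIO-VSG.

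Per 100 normalized counts of Cd3e, Gzmb was 0.897 to 2.20 in DIO-VSG and 2.77 to 7.95 in DIO-LFD, and Ncr1 was 0.938 to 2.88 and 3.15 to 6.83. Cd3e itself was higher in all 4 DIO-VSG libraries than in any DIO-LFD library. The lowest ratios in CON-LFD and DIO-HFD were 1.22 and 2.15 for Gzmb and 2.19 and 2.51 for Ncr1, within the ranges of DIO-VSG.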
